A study of Mus musculus with 2 samples.

Results

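The immediate early genes Fos, Fosb, Jun, Junb, Egr1, Atf3, Ier2, Nr4a1, Zfp36 and Dusp1 were followed across the cell classes of F4/80-enriched mouse spleen. These 10 genes were chosen by name, among 26124 genes in the count tables, to show how their levels were distributed over cell types and libraries. The questions were how widely they were raised in cells that had been handled during tissue dissociation, and whether Nr4a1 was high in Ly6c-low monocytes in particular. Single-cell RNA was measured in 2 droplet libraries, 1 of a control mouse and 1 of a mouse with sickle cell disease (SCD), a hemolytic anemia. Both mice carried 2 copies of Hbatm1Paz, the deleted mouse α-globin locus. The control mouse, which the labels call wild-type and control hetero, was non-sickling, with 1 copy each of the β-globin deletion Hbbtm1Tow and of Tg(HBA-HBBs)41Paz, a transgene for human α-globin and sickle β-globin. The SCD mouse had 2 copies of each. The study used littermate controls and mice of both sexes aged 12 to 16 weeks, and the control library thus also came from a mouse with the human transgene.

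Immediate early genes are transcribed within minutes of a signal, without new protein synthesis, because the factors that bind their promoters are already present. Fos, Fosb, Jun and Junb encode subunits of the AP-1 transcription factor. Egr1, Atf3 and Nr4a1 encode further transcription factors, whereas Zfp36 and Dusp1 encode brakes, an mRNA decay factor and a phosphatase of MAP kinases. Enzymatic or warm dissociation of tissue is known to raise these genes. Nr4a1 is an orphan nuclear receptor that Ly6c-low monocytes, which patrol blood vessels, are known to require and to express at steady state.

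Signals reach these promoters mainly through the serum response factor, which binds the CArG box, and through CREB, which binds the cyclic AMP response element (CRE). RefSeq promoter windows on GRCm38.p6 were at hand for 8 of the 10 genes, and the 250 bases before the annotated start were searched. Nr4a1, Fos, Dusp1 and Zfp36 are shown because each had a pattern of its own over the classes and libraries described below. Capitals mark the CRE core TGACG on either strand, the full CRE TGACGTCA, which holds the core on both strands, and the CArG box.
Nr4a1, chr15:101266596-101266845, plus strand: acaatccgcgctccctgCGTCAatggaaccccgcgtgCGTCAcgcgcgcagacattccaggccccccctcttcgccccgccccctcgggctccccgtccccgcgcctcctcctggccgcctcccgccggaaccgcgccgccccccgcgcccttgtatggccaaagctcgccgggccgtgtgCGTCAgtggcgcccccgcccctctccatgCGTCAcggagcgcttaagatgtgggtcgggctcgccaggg
Fos, chr12:85473640-85473889, plus strand: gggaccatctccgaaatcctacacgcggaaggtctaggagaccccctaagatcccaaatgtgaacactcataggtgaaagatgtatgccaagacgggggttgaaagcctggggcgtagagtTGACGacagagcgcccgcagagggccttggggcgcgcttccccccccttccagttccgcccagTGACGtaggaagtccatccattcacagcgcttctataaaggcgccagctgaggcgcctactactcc
Dusp1, chr17:26508473-26508722, minus strand: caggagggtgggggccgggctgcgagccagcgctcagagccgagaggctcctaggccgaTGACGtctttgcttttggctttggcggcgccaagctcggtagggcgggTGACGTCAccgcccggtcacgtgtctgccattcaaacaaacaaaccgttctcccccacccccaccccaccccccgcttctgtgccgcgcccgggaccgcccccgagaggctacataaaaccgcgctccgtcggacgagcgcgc
Zfp36, chr7:28379229-28379478, minus strand: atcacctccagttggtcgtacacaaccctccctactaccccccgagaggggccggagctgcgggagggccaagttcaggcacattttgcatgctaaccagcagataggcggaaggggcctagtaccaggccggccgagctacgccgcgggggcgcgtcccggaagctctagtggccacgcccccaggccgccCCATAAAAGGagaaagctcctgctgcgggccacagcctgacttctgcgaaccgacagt

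The Nr4a1 window held 4 CRE cores, at 233, 213, 69 and 40 bases before the start. At least 4 cores were found in 45 of all 32851 promoter windows (0.137%), and at least 1 core in 17.8%. The window of Fos held 2 cores and that of Dusp1 held 3, of which 2 lay in its full CRE at 143 bases, a motif found in 1.55% of windows. Zfp36 held no core and had a CArG box, found in 1.47% of windows, at 58 bases. Over the 8 windows, 6 held a CRE core. None of the 8 held the AP-1 motif TGANTCA (6.75% of all windows) or the NR4A motif AAAGGTCA (1.34%), both searched on either strand. These letters describe the windows only. The 3' end counts do not show which start was used. The starts used for the Nr4a1, Dusp1 and Zfp36 windows lie inside longer annotated genes (chr15:101254269-101274795, chr17:26505590-26562128 and chr7:28376784-28380253).

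The wild-type-labelled library held 145953464 unique molecular identifiers (UMIs, counted RNA molecules) in 24144 barcodes, and the SCD-labelled library held 73986356 in 15442. After filtering, 19418 and 12279 cells remained, with medians of 4115.5 and 4571 UMIs per cell. There was 1 library per condition, so that no test between conditions was possible. Intervals in brackets are 95% intervals of the counting error alone, and paired values give the wild-type-labelled library first. The β-globin genes stood against the labels. The level of Hbb-bs in erythroid-like cells was 150 CPM (UMIs scaled to a common total of 1e+06) in the wild-type-labelled library, of an Hbb heterozygote, and at 45449 CPM in the SCD-labelled library, of an Hbb-deleted mouse. Hbb-bt was at 271 and 15321 CPM. Any direction between the libraries therefore holds for the labels only. Of the barcodes, 107 occurred in both libraries, 65 of them among kept cells. Clustering without the 10 genes and other early genes gave 25 clusters, of which 18 were named by markers as 11 classes, and 3761 and 2799 cells stayed unnamed.

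Nr4a1 was highest in Ly6c-low monocyte-like cells, in both libraries. Its level there was 479 CPM (448 to 513) in 417 cells of the wild-type-labelled library and 721 CPM (695 to 747) in 971 cells of the SCD-labelled library. Ly6c-high monocyte-like cells, the classical monocytes, came next with 91.5 CPM (84.6 to 98.9) and 335 CPM (320 to 351). In the wild-type-labelled library the order went on with cDC2-like cells (47.5 CPM), macrophage-erythroid-like cells (31.0), mature DC-like cells (27.8), T lymphocyte-like cells (24.5), B lymphocyte-like cells (24.0), RPM-like cells, that is red pulp macrophage-like cells (22.3), neutrophil-like cells (15.6), granulocyte-monocyte progenitor-like (GMP-like) cells (14.2) and erythroid-like cells (10.6). From macrophage-erythroid-like cells down, the intervals of all neighbours overlapped. In the SCD-labelled library the order after the monocytes was RPM-like cells (86.7 CPM), cDC2-like cells (79.7), macrophage-erythroid-like cells (70.4), T lymphocyte-like cells (63.3), B lymphocyte-like cells (38.8), mature DC-like cells (38.2) and erythroid-like cells (31.7), and the intervals of all these neighbours overlapped.

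**Figure D1:**
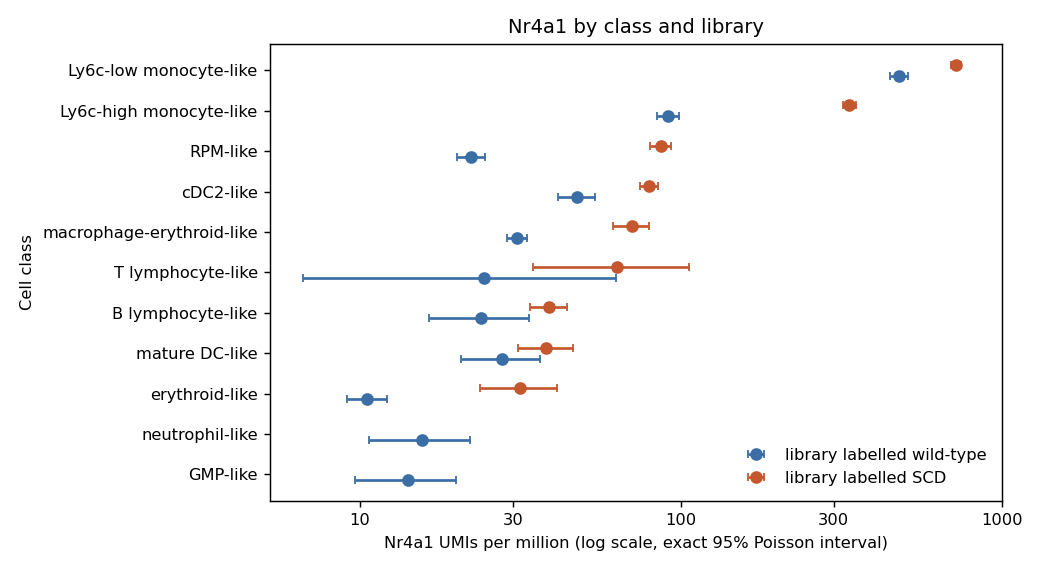
Nr4a1 level in CPM (x axis, log scale) for each class with at least 50 cells (y axis), with exact 95% Poisson intervals. Blue marks the wild-type-labelled library and red the SCD-labelled library, and Ly6c-low monocyte-like cells stand to the right of all other classes in both, at 479 and 721 CPM.

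The Nr4a1 level in Ly6c-low monocyte-like cells was 19.8-fold the median of the other 10 classes in the wild-type-labelled library and 10.8-fold the median of the other 8 in the SCD-labelled library. Against the next class it was 5.24-fold and 2.15-fold higher. With a minimum of 200 genes in place of 500, the class held 591 and 1675 cells and the folds over the median were 12.3 and 5.69. Over the highest other class, the folds were then 3.85 and 1.54. Nr4a1 took no part in clustering or naming. Ace was among the markers that named Ly6c-low monocyte-like cells, and Ly6c2 among those that named Ly6c-high monocyte-like cells. Their levels therefore describe the naming and are no separate evidence for it. In Ly6c-low monocyte-like cells Ace was at 626 and 1129 CPM against medians of 6.73 and 16.1 CPM in the other classes. Ly6c2 was at 6.16 and 26.6 CPM against 931 and 708 CPM in Ly6c-high monocyte-like cells. Red pulp macrophage markers summed to 18105 and 9671 CPM in Ly6c-low monocyte-like cells and to 15754 and 5149 CPM in mature DC-like cells. They summed to 41673 and 35610 CPM in RPM-like cells, where Nr4a1 was at 22.3 and 86.7 CPM.

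The Nr4a1 signal was spread over many Ly6c-low monocyte-like cells. After each cell was thinned to 1000 UMIs, 42.3% (37.5 to 47.3) of 411 cells and 50.6% (47.4 to 53.8) of 963 cells held an Nr4a1 UMI, and before thinning 77.2% and 86.8% did. The variance of the thinned counts was 1.23 and 1.19 times their mean, where a value of 1 is that of counting alone. No class is known to lack Nr4a1. Erythroid-like cells, with the lowest levels, gave 1.0% and 2.58%, and neutrophil-like cells of the wild-type-labelled library 0.738%. The erythroid-like cells had medians of 7718 and 7296 UMIs before thinning against 3357 and 3557 in Ly6c-low monocyte-like cells. Ly6c-high monocyte-like cells were at 7.96% (6.38 to 9.79) and 26.3% (23.4 to 29.4). The share of cells with Nr4a1 was thus higher in Ly6c-low than in Ly6c-high monocyte-like cells of both libraries, and the intervals did not overlap.

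Within this class, the shares of cells with each other immediate early gene did not differ by Nr4a1 beyond the counting intervals. At shares as low as those of Fos, a link from cell to cell could have been missed. Fos held a UMI in 0.575% of the 174 thinned cells with Nr4a1 and in 0.844% of the 237 without in the wild-type-labelled library, and in 1.44% of 487 and 0.840% of 476 in the SCD-labelled library. Junb was found in 24.7% with and 24.5% without Nr4a1, and in 31.4% and 32.6%. In the wild-type-labelled library Ier2 was found in 13.8% (9.04 to 19.8) against 9.7% (6.25 to 14.2). Egr1 was found there in 5.75% (2.79 to 10.3) against 2.11% (0.688 to 4.85), and for both genes the intervals overlapped. Outside this class, cDC2-like cells of the SCD-labelled library held Egr1 in 9.88% (5.86 to 15.4) with and 1.82% (1.31 to 2.46) without Nr4a1. B lymphocyte-like cells there held it in 10.2% against 2.17% and RPM-like cells in 3.70% against 0.369%. Ly6c-high monocyte-like cells of the wild-type-labelled library held it in 4.88% against 0.105%, and none of these pairs of intervals overlapped. In the other groups of named class and library compared, such as cDC2-like cells of the wild-type-labelled library, the Egr1 intervals overlapped. Some intervals of other genes were also apart, as for Junb in wild-type-labelled macrophage-erythroid-like cells (20.2% against 5.44%). Of the Ly6c-low monocyte-like cells with an Nr4a1 UMI, 93.7% (89.0 to 96.8) and 98.4% (96.8 to 99.3) held no UMI of Fos, Fosb or Egr1. Over all kept cells with an Nr4a1 UMI the shares were 95.5% and 95.7%. These genes were sparse after thinning, so such high shares do not show whether Nr4a1 was independent of them.

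**Figure D2:**
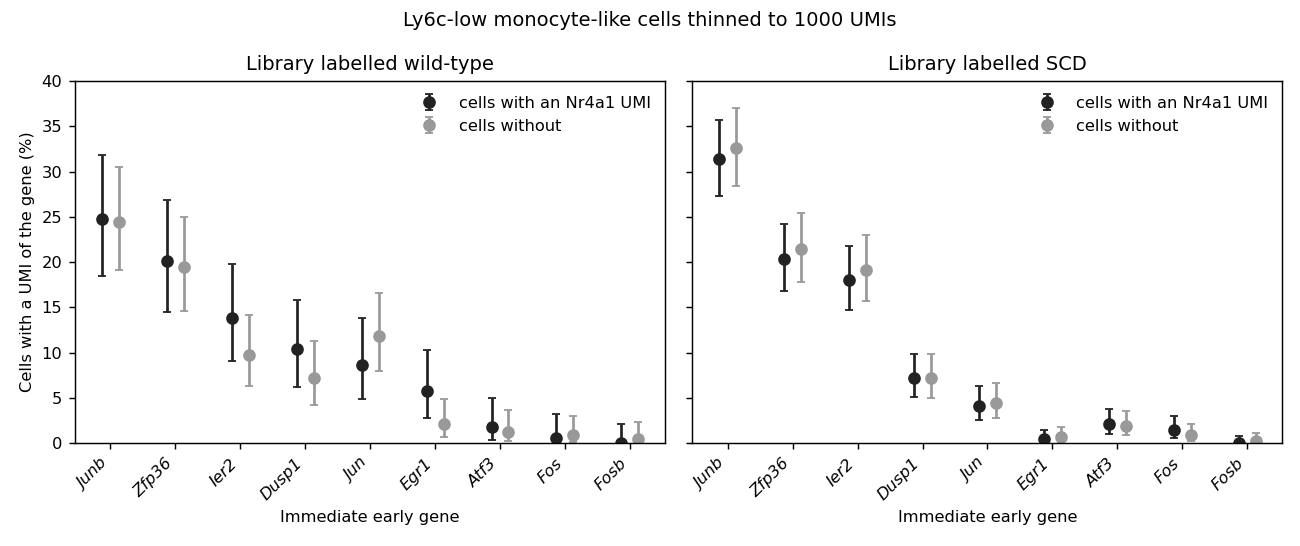
Share of Ly6c-low monocyte-like cells, thinned to 1000 UMIs, that held a UMI of each other gene (y axis, percent), among cells with (black) and without (grey) an Nr4a1 UMI, with exact 95% binomial intervals. The pairs of intervals overlapped for all 9 genes in both libraries.

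Fos itself was sparse. It stood at 7.84 CPM (4.29 to 13.2) and 15 CPM (11.5 to 19.2) in Ly6c-low monocyte-like cells, from 14 and 62 UMIs. Its highest levels were 31.5 CPM (24.6 to 39.7) in GMP-like cells of the wild-type-labelled library, overlapping the 25.7 CPM of Ly6c-high monocyte-like cells, and 33.7 CPM (29.0 to 39.1) in Ly6c-high monocyte-like cells of the SCD-labelled library. Fosb, its close relative, reached 5.64 and 16.3 CPM, in cDC2-like cells. After thinning, 0.408% and 1.0% of all kept cells held a Fos UMI and 0.0979% and 0.683% a Fosb UMI. Both genes were near the limit of detection in most classes, and 1 Fos UMI was all that 428 mature DC-like cells of the wild-type-labelled library held.

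The Jun family had another peak. Mature DC-like cells, dendritic cells named by Ccr7 and other markers, had the highest Junb, 531 CPM (498 to 565) and 804 CPM (770 to 838). They also had the highest Jun, 201 CPM (181 to 222) and 125 CPM (112 to 139). Ly6c-low monocyte-like cells were second for both genes, with 307 and 394 CPM of Junb and 118 and 50.5 CPM of Jun, although their Junb interval overlapped that of cDC2-like cells in the wild-type-labelled library and their Jun interval that of T lymphocyte-like cells in the SCD-labelled library. Nr4a1, in contrast, was at 27.8 and 38.2 CPM in mature DC-like cells. Nr4a1 made up 34.4% (32.6 to 36.3) and 42.3% (41.1 to 43.4) of the 10 genes' UMIs in Ly6c-low monocyte-like cells and 2.73% and 2.51% in mature DC-like cells, where Junb made up 52.2% and 52.7%. Counts from 3' ends do not scale with transcript length, but capture can differ between genes.

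**Figure D3:**
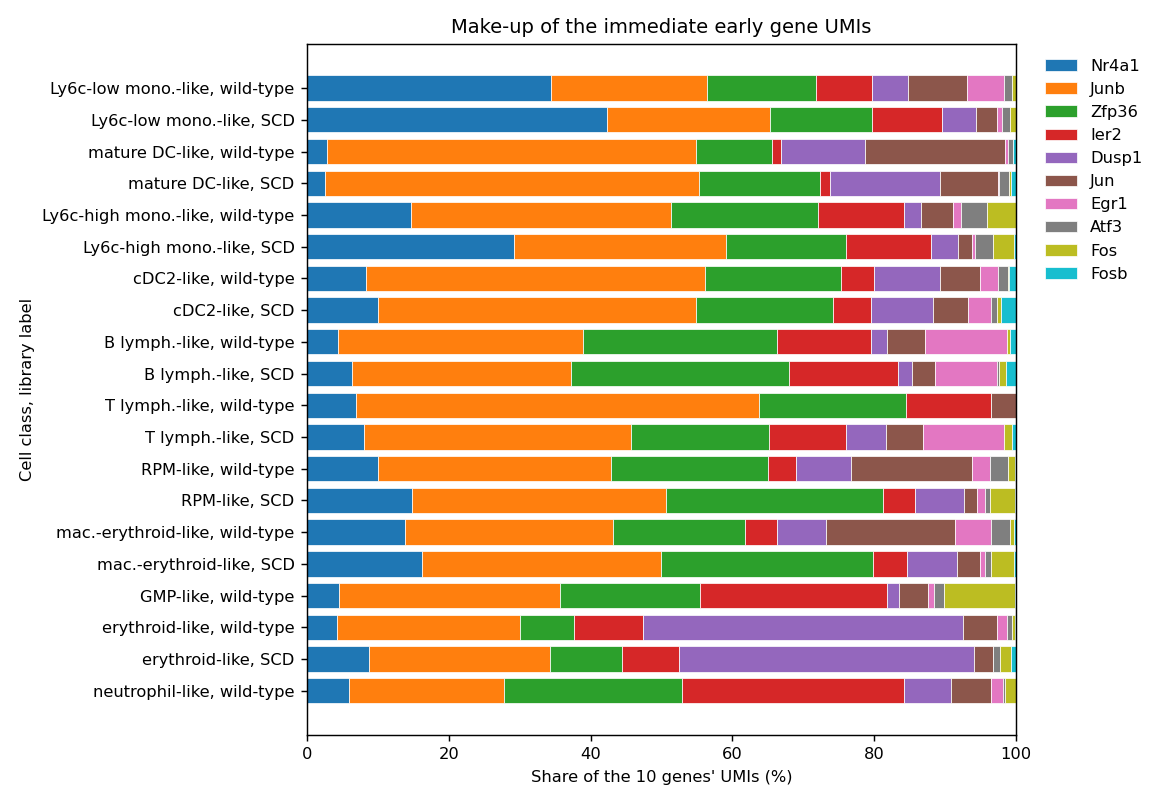
Share of the 10 genes' summed UMIs that each gene contributed (x axis, percent) in each class and library with at least 50 cells (y axis). Nr4a1 (blue, left) takes 34.4% and 42.3% in Ly6c-low monocyte-like cells, Junb (orange) 52.2% and 52.7% in mature DC-like cells, and Dusp1 (purple) 45.1% and 41.6% in erythroid-like cells.

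The feedback genes Dusp1 and Zfp36 each had their own order. Dusp1, which inactivates MAP kinases, was highest in mature DC-like cells, at 121 CPM (106 to 138) and 236 CPM (218 to 255), and second in erythroid-like cells, at 113 CPM (108 to 118) and 152 CPM (134 to 172), with overlapping intervals in the wild-type-labelled library. It made up 45.1% (43.7 to 46.6) and 41.6% (37.7 to 45.6) of the 10 genes' UMIs in erythroid-like cells, in which Fos was at 0.987 and 5.87 CPM and Egr1 at 3.62 CPM and 0 UMIs, a count that allows up to 1.76 CPM. Zfp36, whose product shortens the life of cytokine mRNAs, was highest in Ly6c-low monocyte-like cells of the wild-type-labelled library (213 CPM, 192 to 235) and in mature DC-like cells of the SCD-labelled library (261 CPM, 243 to 281), the latter overlapping Ly6c-low monocyte-like cells (244 CPM, 229 to 260).

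Egr1, Ier2 and Atf3 completed the set. Egr1, a zinc finger factor of growth and antigen receptor signals, was at 71.7 CPM (59.8 to 85.2) in Ly6c-low and 64.6 CPM (51.9 to 79.5) in B lymphocyte-like cells of the wild-type-labelled library, and these overlapped. In the SCD-labelled library it was at 53.5 CPM (47.7 to 59.7) in B lymphocyte-like cells and at 11.6 CPM (8.55 to 15.4) in Ly6c-low monocyte-like cells. T lymphocyte-like cells there were at 90.4 CPM (55.2 to 140), from 20 UMIs held by 4.17% of 72 cells. The interval takes these UMIs as independent. Ier2, which encodes a nuclear protein, was highest in Ly6c-low monocyte-like cells, at 110 and 169 CPM, and the first interval overlapped that of GMP-like cells (83.4 CPM). Atf3, a factor induced by cell stress, was highest in Ly6c-high monocyte-like cells, at 22.8 and 29.0 CPM, and in both libraries its interval overlapped that of the next class. Over all kept cells, the variance of thinned Egr1 counts was 2.43 and 3.05 times their mean, against 1.15 and 1.17 for Zfp36.

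**Figure D4:**
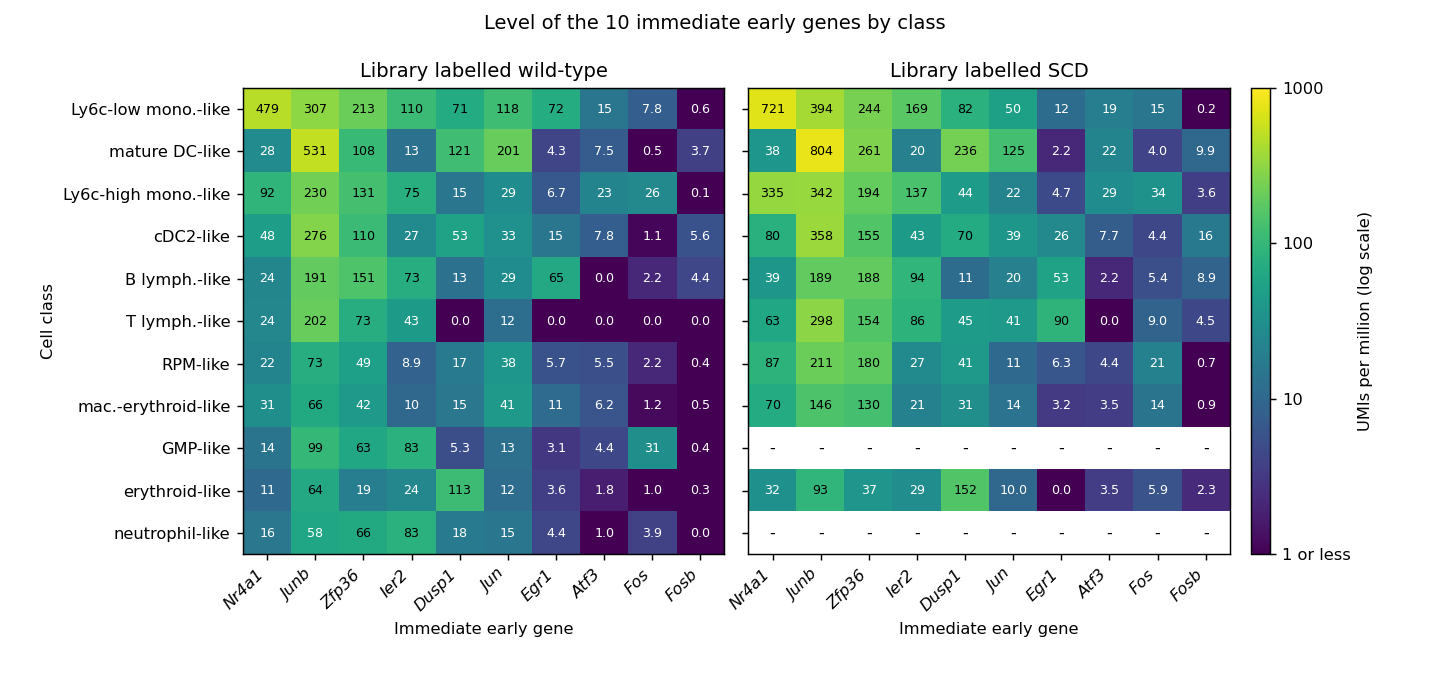
Level of each of the 10 genes (x axis) in each class (y axis) as CPM, by color on a log scale and as printed values, in the wild-type-labelled library (left) and SCD (right). A dash marks a class with under 50 cells, and the classes are ordered by their summed level averaged over the libraries, with Ly6c-low monocyte-like, mature DC-like and Ly6c-high monocyte-like cells at the top.

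Summed over the 10 genes, the level was 1393 CPM (1339 to 1449) and 1706 CPM (1666 to 1746) in Ly6c-low monocyte-like cells, 1018 and 1523 CPM in mature DC-like cells and 627 and 1146 CPM in Ly6c-high monocyte-like cells. At the low end were RPM-like cells with 222 CPM (215 to 230) in the wild-type-labelled library and erythroid-like cells with 365 CPM (337 to 395) in the SCD-labelled library. In Ly6c-low monocyte-like cells, 9 of the 10 genes (all but Fosb, which did not pass a minimum of 100 UMIs) were at least 2-fold over the median of the other classes in the wild-type-labelled library, where 10.1% of 11888 genes were. In the SCD-labelled library, 6 of 10 were, against 11.2% of 11481 genes. These 6 were Fos, Jun, Egr1, Atf3, Ier2 and Nr4a1.

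The handling of the tissue was the same for both libraries. Spleens were disrupted mechanically, red cells were lysed for 2 min at 37 °C, and F4/80-positive cells were taken with antibody-coated beads. No cells fixed or frozen before dissociation were measured, and transcription during handling and in the animal cannot be told apart. The 11 heat shock genes, which protein stress raises, summed to 5044 and 4864 CPM in Ly6c-low monocyte-like cells, 3497 and 3858 CPM in mature DC-like cells and 3199 and 3284 CPM in RPM-like cells. The 8 housekeeping genes summed to 15508 and 16320.2, 18840.5 and 22800.3, and 11621 and 12744 CPM in the same classes. Cells with more mitochondrial RNA, a sign of damage, had less immediate early RNA in most of the classes split by it. Within Ly6c-low monocyte-like cells the 10 genes summed to 1590 CPM in the 209 cells with the lower and 1209 CPM in the 208 cells with the higher mitochondrial share in the wild-type-labelled library, and to 1842 and 1578 CPM in the SCD-labelled library. RPM-like cells gave 240 and 193 CPM, and 634 and 555 CPM. B lymphocyte-like cells gave 655 and 451 CPM, and 641 and 585 CPM, the latter pair with overlapping intervals. The cDC2-like cells gave 573 and 580 CPM, and 814 and 782 CPM, with overlapping intervals in both libraries. Clusters of a class also differed in median mitochondrial share, as RPM-like clusters 1 (7.97%) and 12 (11.2%) did. Their part in these values was not tested. Barcodes that were left out for a mitochondrial share of 15% or more held 251 and 532 CPM, below the 372 and 893 CPM of kept cells.

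Between the libraries, the 10 genes were together higher in the SCD-labelled library. Over all kept cells they summed to 372 CPM (369 to 376) and 893 CPM (885 to 900). Their median log2 ratio was 1.26, beside 0.18 for all 13015 genes with at least 100 UMIs. Of the 10, 6 were at least 2-fold higher, where 12.0% of all genes were, and none was at least 2-fold lower, where 9.78% of all genes were. The 6 were Fos, Fosb, Junb, Ier2, Nr4a1 and Zfp36. The Nr4a1 level of 42.9 and 178 CPM gave a log2 ratio of 2.06. Jun was the only 1 of the 10 with a lower level in the SCD-labelled library, 37.5 against 33 CPM. The libraries also differed in the cells they held, with 4776 against 857 macrophage-erythroid-like and 417 against 971 Ly6c-low monocyte-like cells. The classes were also weighted alike, with the unnamed cells taken as 1 class and classes with under 50 cells in a library left out. The median log2 ratio was then 0.79, and Nr4a1 kept a log2 ratio of 1.43. Junb (0.72) and Ier2 (0.85) were no longer 2-fold higher, and Egr1 turned from 0.56 to -0.38. The make-up of the unnamed cells still differed between the libraries, with 490 and 1380 cells in cluster 10. Thinned to 1000 UMIs, 27.2% (26.5 to 27.8) of 18386 cells and 52.1% (51.2 to 53.0) of 11998 cells held a UMI of any of the 10 genes, after 1032 and 281 shallower cells were left out, and 61.9% and 86.2% did before thinning.

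RPM-like cells had the largest median ratio of the 8 classes with counts enough for it. There 6 of the 9 genes that passed 100 UMIs were at least 2-fold higher in the SCD-labelled library, where 9.29% of 9987 genes were. Fos went from 2.19 CPM (1.54 to 3.02) to 20.8 CPM (17.7 to 24.4), a log2 ratio of 3.25 (2.72 to 3.80). Nr4a1 had a log2 ratio of 1.96 (1.77 to 2.15), Zfp36 of 1.88 (1.75 to 2.01), Ier2 of 1.59 (1.28 to 1.91), Junb of 1.53 (1.42 to 1.64) and Dusp1 of 1.24 (1.0 to 1.47). Jun went the other way, from 37.9 CPM (35.0 to 40.9) to 10.7 CPM (8.52 to 13.4), a log2 ratio of -1.82 (-2.17 to -1.48), where 4.25% of genes were at least 2-fold lower. Egr1 (0.13, -0.40 to 0.65) and Atf3 (-0.30, -0.92 to 0.29) had intervals that held 0. The median over all 10 genes was 1.38, beside 0.20 for all genes tested.

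Different clusters held most of these macrophages in each library. Of 4739 RPM-like cells labelled wild-type, 1106 were in cluster 1 and 3562 in cluster 12, whereas 1588 of 1662 labelled SCD were in cluster 15. Few cells crossed over. In cluster 12 the 10 genes summed to 188 CPM (179 to 198) in the wild-type-labelled library and 389 CPM (261 to 559) in 67 cells of the SCD-labelled library. In cluster 15 they summed to 534 CPM (415 to 677) in 71 cells of the wild-type-labelled library and 592 CPM (575 to 610) in the SCD-labelled library, and these intervals overlapped. Ly6c-low monocyte markers summed to 1894 and 3439 CPM in RPM-like cells and erythroid markers to 585 and 145 CPM. None of these markers was at 0 in either library, and their part in the result was not tested.

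In Ly6c-low monocyte-like cells the differences ran both ways. None of the 8 genes that passed 100 UMIs was at least 2-fold higher in the SCD-labelled library, where 2.39% of 6978 genes were, and 2 were at least 2-fold lower, where 2.32% were. Egr1 went from 71.7 to 11.6 CPM, a log2 ratio of -2.63 (-3.14 to -2.14), and Jun from 118 to 50.5 CPM, a log2 ratio of -1.22 (-1.50 to -0.94). The 128 and 48 Egr1 UMIs were held by 5.76% and 1.13% of the cells before thinning. UMIs of the same cell are not independent, which the counting interval leaves out. Nr4a1 had a log2 ratio of 0.59 (0.48 to 0.70), and the median over the 10 genes was 0.28, or 0.35 without Fosb, which had 1 UMI in each library. Of the 6 early cytokine genes, Cxcl2, Ccl3, Ccl4 and Tnf, which encode chemokines and an inflammatory cytokine, were also at least 2-fold lower in the SCD-labelled library. Cxcl2 was at 81.8 and 11.1 CPM and Tnf at 60.5 and 22.7 CPM. Markers of other cells differed as well between the libraries of this class, with red pulp macrophage markers at 18105 and 9671 CPM, erythroid markers at 449 and 82.1 CPM and Ly6c-high monocyte markers at 156 and 302 CPM in sum. None of these markers was at 0, and their part in the ratios was not tested.

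The remaining 6 classes had at most 4 genes at least 2-fold higher and at most 2 lower. Ly6c-high monocyte-like cells had 2 of 8 genes at least 2-fold higher (2.60% of all genes) and none at least 2-fold lower (5.22%), Nr4a1 with a log2 ratio of 1.87 (1.74 to 2.00) and Dusp1 with 1.55 (1.21 to 1.90). Heat shock genes summed to 3538 and 5531 CPM in this class, with Hspa1a, Hspa1b and Hsph1, 3 of the 10 that passed, at least 2-fold higher, and their part in these ratios was not tested. In macrophage-erythroid-like cells 4 of 8 were higher (4.34% of all genes), Zfp36, Nr4a1, Junb and Ier2, and 2 lower (6.94%), Egr1 with -1.80 (-2.82 to -0.94) and Jun with -1.56 (-2.01 to -1.14). Cluster 24 held 636 of these 857 cells labelled SCD and 15 of the 4776 labelled wild-type, and heat shock genes summed to 4477 and 8152 CPM in the class, whose part in these ratios was not tested. In cDC2-like cells Fosb alone of 9 genes was higher (0.846% of all genes), and none was lower (2.14%). Zfp36 was the 1 higher gene of 5 in mature DC-like cells (2.32%), and Nr4a1 that of 6 in erythroid-like cells (1.63%), with none lower in either (5.81% and 5.19%). B lymphocyte-like cells had none of 6 in either direction (1.23% higher and 1.19% lower). The medians over the 10 genes were 0.57, 1.01, 0.59, 0.78, 0.75 and, with Atf3 set to the bound that its 0 UMIs in the wild-type-labelled library allow, 0.16 in these 6 classes, beside -0.05 to 0.06 for all genes tested.

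**Figure D5:**
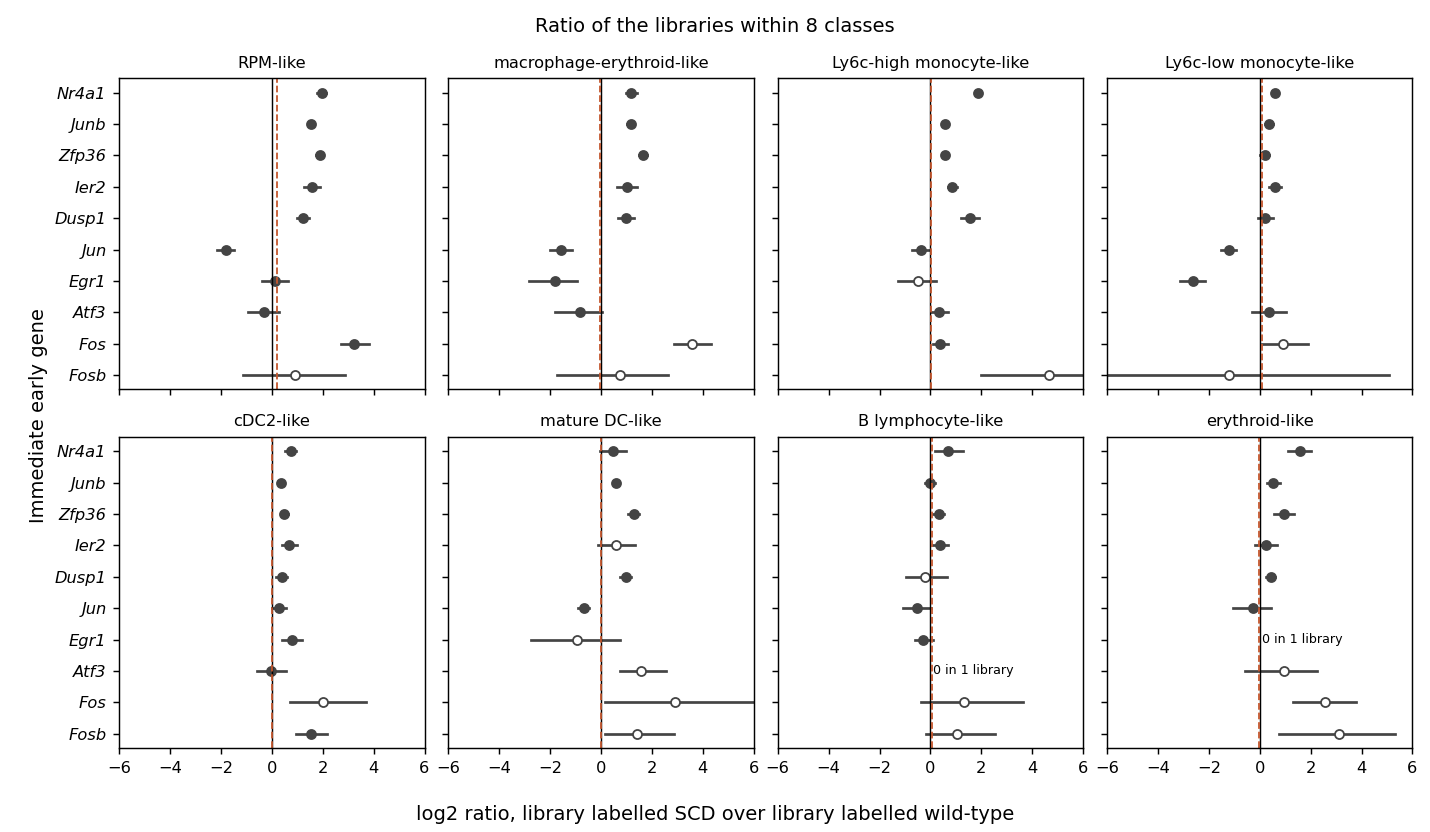
Log2 ratio of the SCD-labelled library over the wild-type-labelled library (x axis) for each gene (y axis) in 8 classes, with exact 95% counting intervals, cut at -6 and 6. Filled points passed 100 UMIs, a gene with 0 UMIs in 1 library has no point, the dashed line is the median of all genes tested, and Jun lies left of 0 in every class shown but cDC2-like cells.

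The wider family of early response genes was followed as a list of 38. In RPM-like cells 10 of the 29 that passed 100 UMIs were at least 2-fold higher in the SCD-labelled library (9.29% of all genes) and none was at least 2-fold lower (4.25%), the largest ratios being those of Dusp2 (2.30), Btg2 (2.25) and Nfkbiz (1.98), a phosphatase, an antiproliferative gene and a regulator of NF-kB. In Ly6c-low monocyte-like cells 1 of 27 was higher (2.39% of all genes), the phosphatase gene Dusp6 at 160 and 334 CPM. In this class 2 were lower (2.32%), Trib1 at 153 and 64.2 CPM and Ppp1r15a at 56.0 and 27.3 CPM. Ly6c-low monocyte-like cells had 10 of 35 measured list genes at least 2-fold over the median of the other classes in both libraries, where 6.37% of 11233 genes were. Klf4, a factor of monocyte differentiation, was at 461 and 653 CPM there against medians of 20.5 and 29.2 CPM. Socs3, an inhibitor of cytokine signals, was at 26.9 and 41.5 CPM against 1.34 and 2.6, and Klf2 at 619 and 959 CPM against 73.5 and 103. The relatives of Nr4a1 did not share its pattern. Nr4a3 was at 0.560 and 1.45 CPM in Ly6c-low monocyte-like cells and highest, at 77.0 and 226 CPM, in mature DC-like cells. These had the highest level of 11 of the 35 genes in both libraries, among them Nfkbia, Tnfaip3 and Gadd45b. B lymphocyte-like cells had that of 4 and Ly6c-low monocyte-like cells that of 3. The share of all genes with their highest level in mature DC-like cells was not counted, so the 11 have no background beside them. Nr4a2 was at 0 UMIs and 0.724 CPM in Ly6c-low monocyte-like cells.

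In RPM-like cells, where 9.29% of all genes were at least 2-fold higher in the SCD-labelled library and 4.25% at least 2-fold lower, 4 other lists were followed. Of the 10 heat shock genes that passed, none was higher and 2 were lower, Hspa1b (24.7 and 6.04 CPM) and Hspa1a (9.54 and 3.89 CPM), both inducible chaperones. Of 13 upstream regulators of the serum response and CRE pathways, 2 were higher, the kinase gene Mapk8 (65.0 and 217 CPM) and Crem (11.3 and 39.9 CPM), a CRE-binding factor. Of 8 housekeeping genes none was higher and Gapdh was lower (230 and 72.6 CPM). Of the 4 early cytokines that passed, 2 were higher, Il1b (6.34 and 327 CPM) and Tnf (3.02 and 7.52 CPM), both inflammatory, and the chemokine gene Ccl3 was lower (7.88 and 0.671 CPM). Their list summed to 28.4 and 345 CPM.

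Across the 20 groups of class and library with at least 50 cells, the 10 genes did not form 1 block. On the scale of log2(CPM + 1), Junb and Zfp36 had a Pearson r of 0.82, Nr4a1 and Zfp36 of 0.69 and Nr4a1 and Fosb of 0.03. Among 13015 genes, those most like Nr4a1 included Ace (0.89), Plekho2 (0.88), Crk (0.87) and Chmp2b (0.86). Those most like the sum of the other 9 were Bcl6 (0.94), Arl5c (0.93), Srgn (0.92), Map3k14 (0.91) and Gm47615 (0.90). Of its own 9 genes, that sum was most like Junb (0.96) and Zfp36 (0.84) and least like Fos (0.24). The 20 points share 2 libraries and their free RNA, and Ace was among the markers that named Ly6c-low monocyte-like cells.

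Beyond the named classes, Nr4a1 was also high in cluster 10, which stayed unnamed because too few markers of any class passed. Its top 10 genes included Lyz1, Cd209a, Clec10a and Cx3cr1, and also Ace, a marker of the Ly6c-low monocyte-like class. Nr4a1 stood there at 90.7 CPM (80.9 to 101) in 490 cells and 269 CPM (259 to 279) in 1380 cells, and these intervals lay below those of Ly6c-low monocyte-like cells. The 10 genes summed to 637 and 1052 CPM in cluster 10. The doublet score marked 27.1% of its cells, and the part of doublets in its levels was not tested.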

How the data were processed

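F4/80-enriched spleen cells of 1 mouse per condition were measured in 2 droplet 3' libraries. The authors aligned reads to GRCm38.p6 with Cell Ranger (4.0.0 in the submitters' processing notes, 3.1.0 in the matrix headers), and the deposited values are raw counts of UMIs.

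Cells needed 500 to 5000 genes, less than 15% of UMIs from mitochondrial and less than 30% from ribosomal-protein genes. With scran 1.30.0 size factors (R 4.3.3), 2000 variable genes entered 30 principal components, 15 neighbours and Leiden clustering at resolution 1 (scanpy 1.11.5, Python 3.11.15). The 10 genes, the early response and stress lists, hemoglobin and sex-linked genes stayed out of the variable genes. Clusters were named by markers. RPM-like clusters needed 3 or more red pulp macrophage markers in at least 10% of cells and a median marker level 4 times that of B lymphocytes, macrophage-erythroid-like clusters also an erythroid level 2 times theirs, and other classes at least 50% of their markers at 2 times the remaining cells. A first clustering had been seen when these limits were chosen. Unnamed clusters held 4.98% and 2.98% of the cells labelled wild-type and SCD because 33% or more of their cells were scored as doublets, 5.73% and 3.94% because another class led their top 10 genes, and 8.66% and 15.9% for too few markers. Scrublet doublets were left in. Its automatic threshold marked 1712 cells labelled SCD and 0 labelled wild-type, where the top 10% (2046) were used instead.

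Levels are summed UMIs scaled to 1e+06 (CPM) with exact Poisson intervals. Ratios have exact conditional binomial intervals and shares exact binomial (Clopper-Pearson) intervals, all at 95% and for counting error alone. A count of 0 allows 3. Calls needed 100 UMIs over the groups compared and a 2-fold difference, and classes 50 cells. No test was run, since each condition has 1 library. The code was tested on simulated data. The text names the 10 genes, the list genes with the largest differences, the 5 genes most like Nr4a1 or the other 9 by Pearson r, and the β-globin genes. A gene that this rule selects is not reported here. Nr4a2, Nr4a3, Nfkbia, Tnfaip3, Gadd45b and cluster 10 were singled out after their values were seen. The members and lists were chosen with earlier results of these data known. Alternatives changed the cell filter, doublets, clustering, scaling and thinning depth.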

Additional observations from a re-analysis of the deposited data

Results flagged for a closer look

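The ratio of the libraries had opposite signs in different classes for 2 of the 10 genes, with counting intervals on opposite sides of 0, and with 1 library per condition this difference was not tested. For Egr1 the log2 ratio of the SCD-labelled library over the wild-type-labelled library was 0.78 in cDC2-like cells and -2.63 in Ly6c-low monocyte-like cells, 3.41 apart. Only 5.76% and 1.13% of the Ly6c-low monocyte-like cells held Egr1 before thinning, and the intervals take UMIs of the same cell as independent. For Jun it was 0.27 in cDC2-like cells and -1.82 in RPM-like cells, 2.09 apart, and its interval lay below 0 in 5 of the 8 classes compared.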

How the results depend on the processing

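No ratio changed sign under the alternatives run, which a share of cells could not do, and 28 of 52 values stayed within a band around the reported one. For Nr4a1 this band held the counting error of the Ly6c-low monocyte-like cells only. For the medians of the 10 genes it was the median width of the single-gene intervals, which is wide (1.05 to 1.71 in RPM-like cells). For the shares it was their binomial interval. The log2 ratio of Nr4a1 in Ly6c-low monocyte-like cells to the median of the other classes, 4.31 in the wild-type-labelled library and 3.43 in the SCD-labelled library, was 3.62 and 2.51 with a minimum of 200 genes, 4.18 and 3.32 without doublets, 4.21 and 3.62 at resolution 2, 4.15 and 3.26 with totals without hemoglobin, mitochondrial and ribosomal-protein genes, 4.59 and 3.28 with scran size factors and 4.2 and 3.23 with clusters named whatever their doublet share. For the wild-type-labelled library alone it moved to 4.12 with the early genes allowed in clustering and 4.67 as a mean over cells, and for the SCD-labelled library alone to 3.29 at resolution 0.5 and 3.79 with each library clustered on its own. The median log2 ratio of the 10 genes over all kept cells, 1.26, was 1.19 with scran size factors, 1.08 after centring on all genes and 0.79 with the classes weighted alike. In RPM-like cells it ranged from 1.18 to 1.70. The share of thinned cells with a UMI of any of the 10 genes was 15.5% and 33% at 500 UMIs, 44.8% and 73.4% at 2000 UMIs, and 50.7% with a minimum of 200 genes in the SCD-labelled library. The causes of these shifts were not tested, except that a deeper thinning leaves more UMIs per cell. Naming clusters over the doublet limit, leaving out shared barcodes and weighting classes alike were chosen after seeing the data. No paired analysis was possible because each condition has 1 library.

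With 1 mouse per condition, no spread between mice is known. Fos and Fosb rest on few UMIs in most classes, and at this depth a difference between classes with under 4 UMIs of either was not detectable.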
